A study of Homo sapiens with 4 samples.

Results

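The 9 genes described here, NFKBIA, TNFAIP3, NFKB2, IL1A, IL1B, CXCL8, CXCL1, SOD2 and ICAM1, are response genes of the transcription factor NF-kB and of interleukin-1 signalling. They were chosen by name, with earlier results of these data known. Their regions were the rows of 3 deposited lists of ChIP-seq enriched regions that met each gene's hg19 span widened by 5 kb on each side. The rule gave 37 of 128734 regions. Of these, 8 of 11604 came from the list for 53BP1, 14 of 62530 from that for Pol II S5p and 15 of 54600 from that for Pol II S2p. ChIP-seq pulls down a protein with the crosslinked DNA around it and sequences that DNA. The cells were MCF10A, an established non-tumour line of human breast epithelium, kept in ordinary culture, and the labels name no cytokine or other stimulus. The series holds 1 sample each for 53BP1, for the form of RNA polymerase II (Pol II) with phosphate on serine 5 (S5p), for its form with phosphate on serine 2 (S2p) and for input DNA. The input was not analysed here. With 1 library per ChIP, no value below has a replicate error, and no test between conditions can be made.

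NF-kB is a family of dimeric factors that inhibitor proteins hold in the cytoplasm. Signals such as interleukin-1 lead to destruction of the inhibitor, entry of NF-kB into the nucleus and transcription of its targets, among them genes for the inhibitors themselves, which close a feedback loop. Epithelial cells use the pathway to produce cytokines and chemokines that call in immune cells. Pol II carries S5p mainly near gene starts and S2p mainly while it elongates and near gene ends. 53BP1 binds chromatin at DNA breaks and helps choose how they are repaired, and it also binds p53.

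NF-kB is known to act through short DNA elements, and the sequences before the gene starts were searched for their letters. RefSeq (GRCh38.p14) gave 15 starts for the 9 genes, with 250 bases before and 50 after each. The 10-base NF-kB consensus, read on both strands, matched in 5 of these 15 promoters and in 4 of the 9 genes, against 5.91% of all 35116 promoters in the table. The matching promoters are shown because they hold these letters. Each line is the 250 bases before the start, 5′ to 3′ on the gene's strand, with NF-kB matches in capitals.
NFKBIA, chr14:35404750-35404999, minus strand: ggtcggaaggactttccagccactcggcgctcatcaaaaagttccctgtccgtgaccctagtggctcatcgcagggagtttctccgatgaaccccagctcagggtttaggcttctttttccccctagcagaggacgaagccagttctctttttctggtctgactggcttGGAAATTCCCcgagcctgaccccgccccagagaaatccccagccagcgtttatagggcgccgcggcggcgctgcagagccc
TNFAIP3, chr6:137867009-137867258, plus strand: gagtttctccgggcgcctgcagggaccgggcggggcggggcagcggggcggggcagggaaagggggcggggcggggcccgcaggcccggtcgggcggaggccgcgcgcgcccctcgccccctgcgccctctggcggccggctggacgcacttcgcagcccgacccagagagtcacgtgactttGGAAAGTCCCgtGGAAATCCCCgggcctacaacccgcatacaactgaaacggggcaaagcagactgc
NFKB2 middle start, chr10:102394328-102394577, plus strand: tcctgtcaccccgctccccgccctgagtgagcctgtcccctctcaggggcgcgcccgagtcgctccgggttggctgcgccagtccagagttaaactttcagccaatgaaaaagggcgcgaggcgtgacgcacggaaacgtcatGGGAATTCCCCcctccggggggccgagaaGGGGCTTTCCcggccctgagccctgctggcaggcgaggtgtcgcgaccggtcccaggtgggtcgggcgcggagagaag
NFKB2 last start, chr10:102395455-102395704, plus strand: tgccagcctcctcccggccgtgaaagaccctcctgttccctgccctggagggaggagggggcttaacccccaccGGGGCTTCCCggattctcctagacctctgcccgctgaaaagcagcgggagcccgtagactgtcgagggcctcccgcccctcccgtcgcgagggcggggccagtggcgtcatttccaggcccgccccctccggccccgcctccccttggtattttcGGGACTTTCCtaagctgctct
CXCL1, chr4:73869143-73869392, plus strand: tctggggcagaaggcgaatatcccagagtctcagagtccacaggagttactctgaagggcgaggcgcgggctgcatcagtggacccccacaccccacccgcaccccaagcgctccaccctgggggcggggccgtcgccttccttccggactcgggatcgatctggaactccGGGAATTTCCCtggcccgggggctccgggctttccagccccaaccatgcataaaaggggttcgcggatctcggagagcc

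The matches lay close to the starts. NFKBIA had 1, beginning 81 bp before its start. TNFAIP3 had 2, beginning 67 and 55 bp before. In CXCL1 the overlapping matches began 79 and 78 bp before the start. The middle NFKB2 start had 3, of which 2 overlapped, and the last NFKB2 start had 2, beginning 176 and 21 bp before it. No exact match was found in the windows of CXCL8, IL1A, IL1B, SOD2 or ICAM1. The consensus was GGGRNWYYCC, where R is A or G, N any base, W A or T and Y C or T. Only exact matches were counted. CXCL8 holds tggaatttcc and ICAM1 tggaaattcc, which differ from it in the first letter alone. The lack of a match therefore does not show the lack of an NF-kB element.

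AP-1, the Jun and Fos family of factors, often works beside NF-kB at cytokine genes. The letters TGANTCA, also read on both strands, were in 3 of the 15 promoters, of the genes CXCL8 and IL1A, against 7.71% of all promoters. The IL1A starts lie 93 bp apart, so their windows overlap and hold the same TGANTCA letters, counted from each start. CXCL8 and IL1A are shown, with these letters in capitals, as the cytokine promoters that hold AP-1 letters and no exact NF-kB match. The letters did not overlap such a match, as these windows held none. The IL1A line is for the later of its 2 RefSeq starts.
CXCL8, chr4:73740319-73740568, plus strand: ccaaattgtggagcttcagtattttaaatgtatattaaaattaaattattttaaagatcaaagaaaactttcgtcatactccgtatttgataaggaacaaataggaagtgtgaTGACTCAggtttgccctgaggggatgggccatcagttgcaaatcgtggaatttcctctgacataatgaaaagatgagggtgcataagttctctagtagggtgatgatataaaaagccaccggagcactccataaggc
IL1A later start, chr2:112784401-112784650, minus strand: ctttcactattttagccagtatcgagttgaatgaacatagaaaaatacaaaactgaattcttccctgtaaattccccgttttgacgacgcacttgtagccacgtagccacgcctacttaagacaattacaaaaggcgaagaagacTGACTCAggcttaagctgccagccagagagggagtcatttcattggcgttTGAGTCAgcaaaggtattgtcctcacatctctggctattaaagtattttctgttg

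The letters TATAAA of a TATA box, searched on the gene's strand, was in 3 of the 15 promoters, against 7.33% of all promoters. Counted from the start, these letters began at -31 in CXCL8 and -30 in ICAM1, where a TATA box is usual, and at -239 in IL1A, from the first of its starts. A 10-base p53 element, of which the full p53 consensus joins a pair, was read on both strands and was in 1 promoter, that of the last SOD2 start, against 6.63%. The promoters come from GRCh38 and the regions from hg19, so a letter match was not placed inside any region. A match describes letters, not binding.

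Pol II was recorded at 8 of the 9 genes and 53BP1 at 6. The lists differ in their number of regions, so each count is read against its own list's background. An S5p region met the widened span of 8 genes, against 17.9% of 168767 windows of equal length (17952 bp, the median widened span) laid end to end along the chromosomes. An S2p region also met 8 genes, against 15.2% of those windows, and a 53BP1 region met 6, against 5.87%. With a −log10 q-value of at least 5 required, 53BP1 was left at 4 genes, without TNFAIP3 and NFKB2. The share of windows at that limit was not counted, so 5.87% is not the background for these 4 genes. The 6 genes with 53BP1 had all 3 lists, as did 5.00% of the windows. SOD2 had no region of any list, as did 78.8% of the windows. The windows include stretches without genes, so they are a low background for any gene. Read depth is unknown, and a gene without a region had none detected, which does not show absence.

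**Figure D1:**
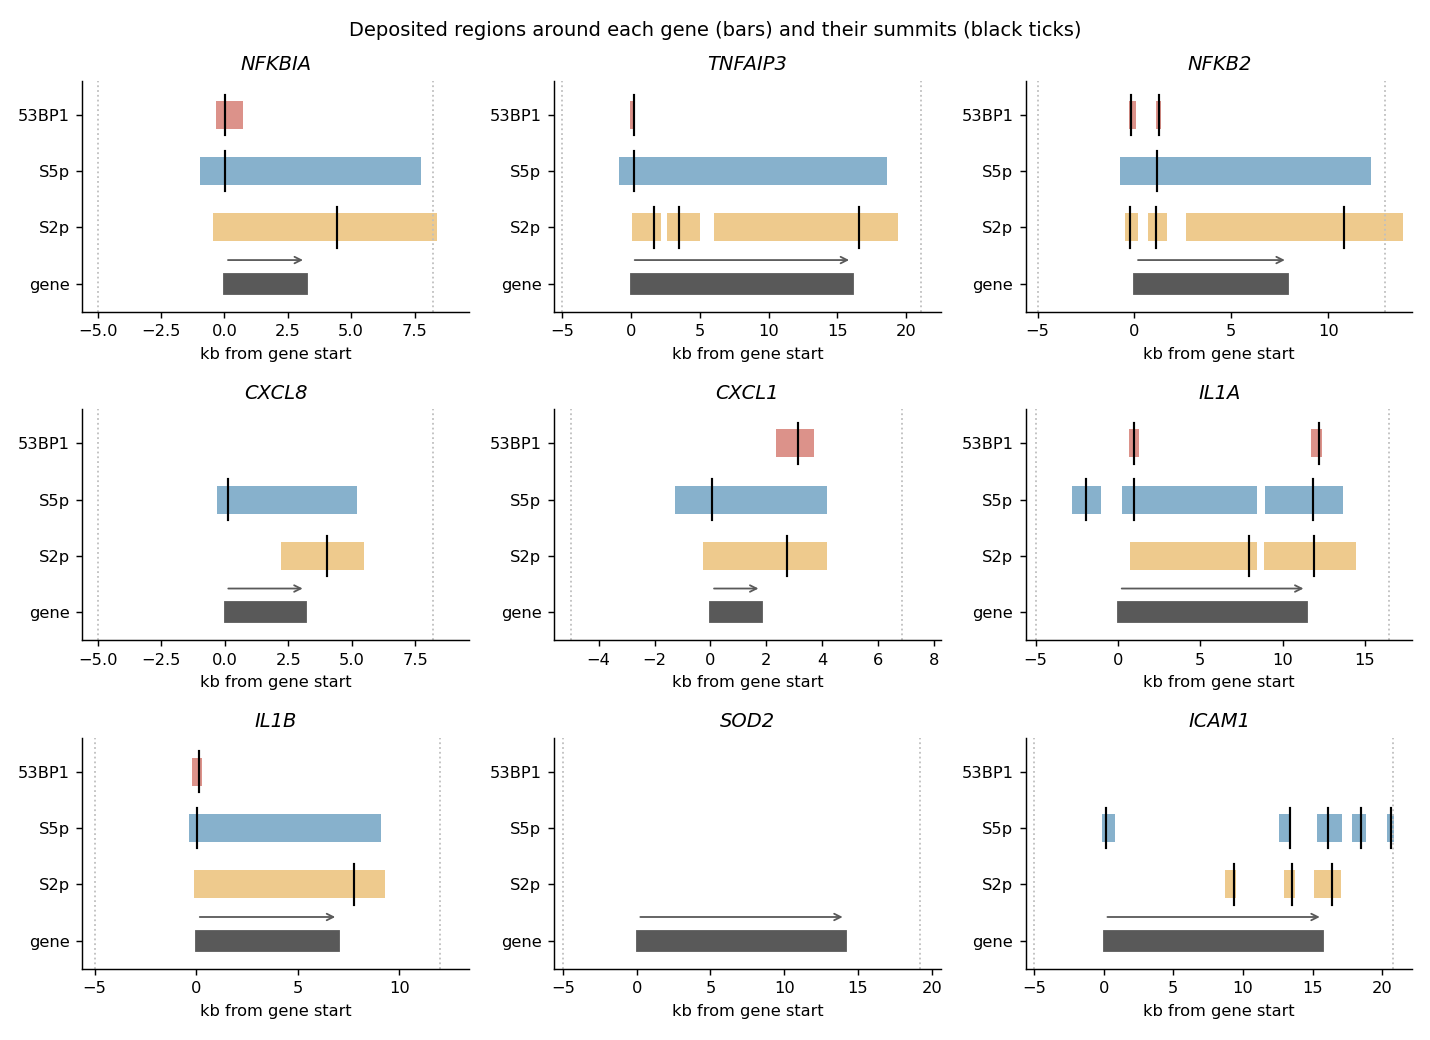
Position of every deposited region around the 9 genes, in kb from the gene start along the direction of transcription. Coloured bars are regions of 53BP1, S5p and S2p, black ticks are their summits, grey boxes are the gene spans and dotted lines mark the spans widened by 5 kb; SOD2 is empty, and the strongest S2p summits lie beyond the gene ends.

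NFKBIA encodes IkB-alpha, the inhibitor that NF-kB itself induces, and it was the gene with the highest 53BP1 and S5p folds of the 9. The fold is the authors' enrichment of a region over background, and it ranks regions within 1 list. NFKBIA had 1 region of each list. Its 53BP1 region (chr14:35873236-35874271, 1036 bp) had a fold of 16.6, which was rank 300 of 11604. Its S5p region (chr14:35866220-35874908, 8689 bp) had a fold of 106, rank 203 of 62530, and its S2p region (chr14:35865562-35874413, 8852 bp) a fold of 68.5, rank 193 of 54600.

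The 53BP1 and S5p summits at NFKBIA lay 7 bp apart, at 38 and 45 bp into the gene. The S2p summit lay 1192 bp past the gene's end. Both Pol II regions covered 100% of the 3244 bp span, while 53BP1 covered 22.3% of it, next to the start.

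TNFAIP3 encodes A20, a ubiquitin-editing enzyme that damps NF-kB signalling. It paired strong Pol II with one of the weakest 53BP1 regions of the list. Its 53BP1 region (chr6:138188240-138188573, 334 bp) had a fold of 3.38, at percentile 4.02 of the 53BP1 list, and a −log10 q-value of 1.90. The lowest −log10 q-value in that list was 1.32. The S5p region (chr6:138187418-138206965) was 19548 bp long and had a fold of 39.9, at percentile 95.3.

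The TNFAIP3 summits lay together at the start, with 53BP1 at 189 bp and S5p at 204 bp into the gene. S2p lay in 3 regions. The 2 nearer the start had folds of 4.11 and 3.66. The strongest (chr6:138194362-138207716, 13355 bp) had a fold of 22.1, at percentile 96.9, and its summit was 434 bp past the gene's end. In GRCh38 the long noncoding RNA gene WAKMAR2 overlaps TNFAIP3, and regions at the start cannot be told apart between them.

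NFKB2 encodes p100, the precursor of the NF-kB subunit p52. 53BP1 was recorded at 2 separate points near its start. The first region (chr10:104154075-104154418) had a fold of 4.32 and a summit 169 bp before the span's start. The next (chr10:104155431-104155728) had a fold of 4.91 and a summit 1265 bp into the gene. Both were below the median of the 53BP1 list, at percentiles 20.1 and 33.1.

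These points lay near RefSeq starts of NFKB2, if the gene's end is shared between the builds. The middle of its 3 starts lies 7952 bp from the gene's end in GRCh38, the same length as the hg19 span, and the last start lies 1127 bp further along. With the gene's end taken as shared between the builds, the 53BP1 summits were 169 bp from the middle start and 138 bp from the last. A weak S2p region lay at each as well, with folds of 3.10 and 3.43 and summits 231 bp and 9 bp from the same starts. The S5p region (chr10:104153603-104166540, 12938 bp, fold 19.0, percentile 87.9) spanned both starts, and its summit was 41 bp from the last.

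The strongest S2p region of NFKB2 (chr10:104157009-104168184, 11176 bp) had a fold of 24.1, at percentile 97.4. Its summit was 2847 bp past the gene's end, the farthest of the 8 genes with S2p. The gene PSD lies 90 bp downstream of NFKB2 in GRCh38, so the source of this S2p signal cannot be told apart between them.

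IL1A and IL1B encode the interleukin-1 ligands alpha and beta. They are neighbours on chromosome 2, with 44.4 kb between their hg19 spans. IL1A had the strongest S2p of the 9 genes. Its S2p region at the gene's end (chr2:113528546-113534116, 5571 bp) had a fold of 105, rank 65 of 54600. A further S2p region over the gene body (chr2:113534534-113542244) had a fold of 44.6, rank 511.

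IL1A also had 3 S5p regions and 2 53BP1 regions. The S5p region of highest fold lay at the gene's end (chr2:113529292-113534046, fold 61.9, percentile 98.4), with its summit 370 bp past the end. The S5p region near the start (chr2:113534529-113542749) had a fold of 32.0, at percentile 93.1, and one before the start (chr2:113544006-113545745) had a fold of 9.49 and met neither 53BP1 nor S2p. The stronger 53BP1 region (chr2:113541717-113542326) had a fold of 10.3, at percentile 86.8, and its summit was 21 bp from the S5p summit near the start. The weaker 53BP1 region (chr2:113530575-113531258) had a fold of 6.05, at percentile 51.4, and lay 708 bp past the gene's end. 53BP1 and S5p regions thus lay at both ends of IL1A.

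The IL1A start depends on the gene model. The hg19 span of the rule is 11480 bp, and the RefSeq gene in GRCh38 is 10569 bp. The stronger 53BP1 summit was 952 bp into the hg19 span. Measured from the gene's end, taken as shared between the builds, this summit was 41 bp from the first of the RefSeq starts.

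IL1B had 1 region of each list. Its 53BP1 region (chr2:113594072-113594556) had a fold of 5.06, at percentile 35.1, with the summit 131 bp into the gene. Its S5p region (chr2:113585274-113594695, 9422 bp) had a fold of 19.8, at percentile 88.3, with the summit 28 bp into the gene. The S2p region (chr2:113585079-113594448, 9370 bp) had a fold of 30.3, at percentile 98.2, with the summit 753 bp past the gene's end. Both Pol II regions covered 100% of the span. In GRCh38 the long noncoding RNA gene AMANZI lies 3013 bp upstream of IL1B.

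CXCL8, which encodes interleukin-8, and CXCL1 encode chemokines that attract neutrophils. They lie 126 kb apart on chromosome 4. At both, the S5p summit lay near the start and the S2p summit past the end, while S2p covered 100% of the CXCL1 span and 30.5% of the CXCL8 span. CXCL8 had an S5p region (chr4:74605921-74611443, 5523 bp, fold 27.9, percentile 91.7) with its summit 121 bp into the gene, and no 53BP1 region. Its S2p region (chr4:74608454-74611698, fold 19.96, percentile 96.5) began 2231 bp into the 3211 bp span and had its summit 825 bp past the end.

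CXCL1 had an S5p region (chr4:74733835-74739274, 5440 bp, fold 50.6, percentile 97.2) with its summit 63 bp into the gene. Its S2p region (chr4:74734855-74739268, fold 30.6, percentile 98.2) had its summit 896 bp past the end. The 53BP1 region of CXCL1 (chr4:74737449-74738814, 1366 bp) had a fold of 9.09, at percentile 81.1. It began beyond the gene: its summit was 1278 bp past the gene's end, 382 bp from the S2p summit and 3065 bp from the S5p summit. No 53BP1 region lay at the CXCL1 start, and RefSeq lists no other gene within 5 kb of CXCL1 in GRCh38.

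ICAM1 encodes an adhesion protein that leukocytes bind, and its Pol II was the weakest among the 8 genes with Pol II. The S5p region at its start (chr19:10381418-10382287, 870 bp) had a fold of 6.25, at percentile 74.5, with the summit 151 bp into the gene. The other 4 S5p regions had folds of 2.61 to 4.69, and 3 of the 5 met no S2p region. Regions covered 13.6% of the 15775 bp span for S5p and 14.5% for S2p, or 7.78% and 4.14% with a −log10 q-value of at least 5 required. The strongest S2p region (chr19:10396639-10398593, fold 8.46, percentile 88.5) had its summit 585 bp past the end. In GRCh38, ICAM4 lies 340 bp downstream of ICAM1 and ICAM5 3337 bp downstream, and the noncoding genes LIMASI and ICAM4-AS1 overlap ICAM1, so regions there cannot be told apart between these genes. No 53BP1 region met the widened span.

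SOD2 encodes the manganese superoxide dismutase of mitochondria. Its span on chromosome 6 (chr6:160100148-160114353) met no region. That span is 14206 bp long, while the RefSeq gene in GRCh38, with starts farther upstream, is 93213 bp long. The lack of a region therefore applies to this span, and the starts farther upstream were outside the rule. The nearest regions were all upstream: S2p at 20.7 kb, S5p at 21.1 kb and 53BP1 at 33.4 kb from the span's start. Downstream, the nearest S5p region was 597 kb away. The numbers in the deposited region names run without a gap in each list, so no row was missing between the first and last number. Rows cut from the end of a list, or removed before naming, would not be detected in this way.

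**Figure D2:**
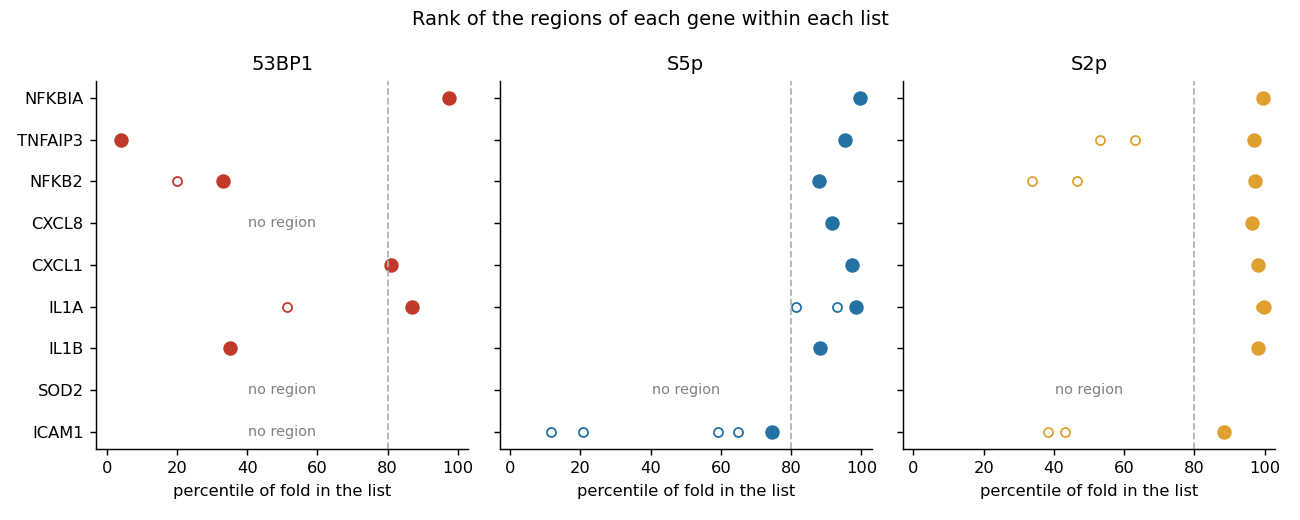
Percentile of the fold of each region within its own list (x axis) for each gene (rows), in separate panels for 53BP1, S5p and S2p. Filled points are the strongest region of a gene and open points its other regions. For the strongest regions, S2p points run from 88.5 to 99.9 and 53BP1 points from 4.02 to 97.4. Each percentile ranks a region within its own list and does not set the lists against each other.

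Set against the whole lists, the Pol II regions of these genes were mostly strong. The lists include regions away from genes, and no background over other genes was made, for lack of an hg19 annotation. Of their 14 S5p regions, 9 were in the strongest 20% of the S5p list (64.3%, exact Clopper-Pearson 95% interval 35.1 to 87.2), against 20% of all by construction. The intervals of shares cover counting error only, and regions of 1 gene share their source. Of the 15 S2p regions, 9 were in the strongest 20% of the S2p list (60.0%, 32.3 to 83.7), also against 20%. The strongest S5p region of a gene had a median percentile of 93.5 over 8 genes, and the strongest S2p region a median of 97.8. The strongest 53BP1 region had a median of 58.1 over 6 genes. The lists differ in length, so these medians do not set the lists against each other. They take the strongest region of each gene and leave out genes without a region, and no matching background was made. NFKB2 and IL1B were the most alike pair among the 6 genes with regions in each list, at a Euclidean distance of 2.24 percentile points over the 3 lists.

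53BP1 met 7 of the 14 S5p regions (50.0%, 23.0 to 77.0), against 15.2% of all S5p regions, and 8 of the 15 S2p regions (53.3%, 26.6 to 78.7), against 13.9% of all. Among S5p regions of like strength the gap was smaller. Of the 9 S5p regions in the strongest 20%, 7 met 53BP1 (77.8%, 40.0 to 97.2), against 71.4% of all S5p regions of that strength. By genes, 6 of the 7 with such an S5p region had 53BP1, against 65.0% of the windows with one. The share is thus near the background for regions of like S5p strength. Of the 9 S2p regions in the strongest 20%, 5 met 53BP1 (55.6%, 21.2 to 86.3), against 36.8% of all S2p regions of that strength, a share inside the interval. S5p and S2p also met each other: 10 of the 14 S5p regions met S2p (71.4%), against 60.2% of the S5p list, and 14 of the 15 S2p regions met S5p (93.3%), against 54.9% of the S2p list. Seen from 53BP1, 8 of 8 regions met S5p, against 97.6% of the list, and 8 of 8 met S2p, against 78.9%.

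The genes differed in where their 53BP1 stood among S5p regions of like fold. The S5p list was divided by fold into 50 classes of 2% each. NFKBIA and IL1A fell in the class of highest fold, where 99.8% of S5p regions met 53BP1. The NFKBIA 53BP1 fold of 16.6 was above the class's upper quartile of 15.0, with 1016 of the 1248 regions at or below it. The 53BP1 fold of 6.05 inside the strongest IL1A S5p region, the one at its end, was below the lower quartile of 8.42. The stronger IL1A 53BP1 region, of fold 10.3, lies in the S5p region near the start, whose class was not compared. In the class of TNFAIP3, 97.1% met 53BP1 with a median fold of 7.27, and 13 of those 1214 regions had a 53BP1 fold as low as that of TNFAIP3 or lower. TNFAIP3 thus stood near the bottom of its class. CXCL8 lay in a class where 88.7% met 53BP1, and it was among the 141 of 1251 regions that did not.

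The others were closer to their classes. CXCL1 had a 53BP1 fold of 9.09 against a class median of 8.19, with 98.3% of its class meeting 53BP1. NFKB2 had 4.91 against a median of 5.39, with 63.6% meeting 53BP1, and IL1B had 5.06 against a median of 5.62, with 79.2%. ICAM1 had no 53BP1 in a class where 4.56% met it. These comparisons describe single regions from 1 library, and their chance was not tested.

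**Figure D3:**
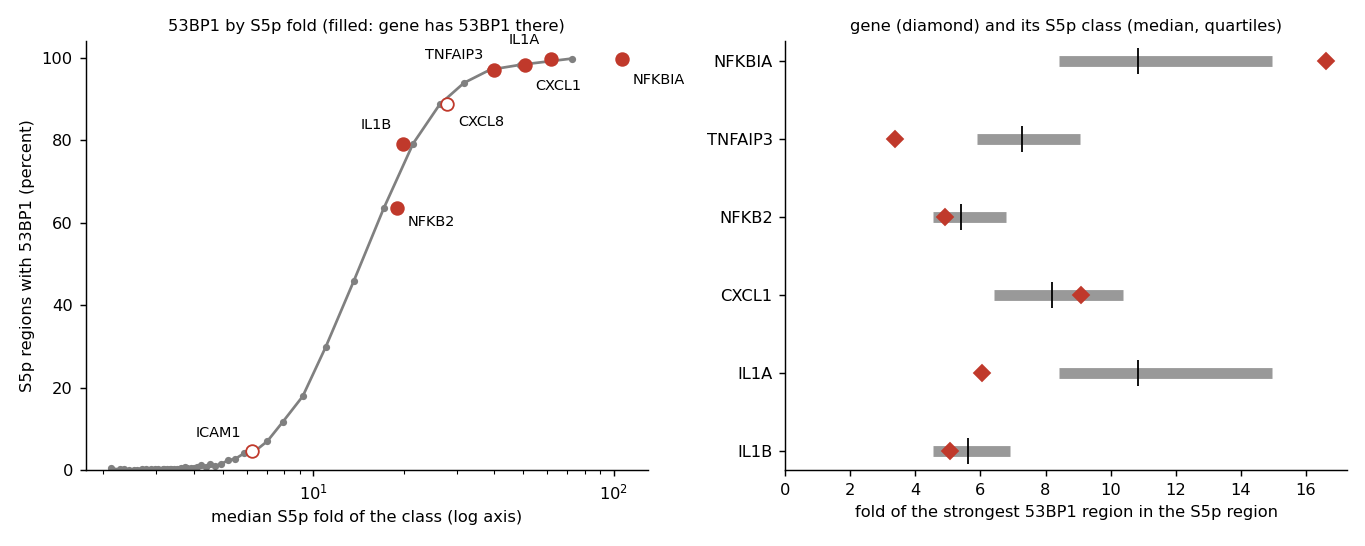
Left, share of S5p regions that meet 53BP1 (y axis, percent) in 50 classes of S5p fold (x axis, log scale, grey line), with each gene at its own S5p fold and its class's share, filled where its strongest S5p region holds 53BP1. Right, fold of the strongest 53BP1 region inside that S5p region (diamonds) beside the median (tick) and quartiles (bar) of its class; TNFAIP3 at 3.38 and IL1A at 6.05 lie below the lower quartiles of 5.90 and 8.42.

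The summits divided the genes in a regular way. The strongest S2p summit lay past the gene's end in 8 of 8 genes, by 411 to 2847 bp (median 789 bp), and in 6 of them within 1 kb of the end. The strongest S5p summit lay within 500 bp of the span's start in 6 of 8 genes; the exceptions were NFKB2, at 1168 bp, and IL1A, at its end. Along each gene, the S2p summit was downstream of the S5p summit, by 41 bp at IL1A and by 2683 to 16356 bp at the other 7. No hg19 annotation was at hand, so how often this holds over all genes was not tested.

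**Figure D4:**
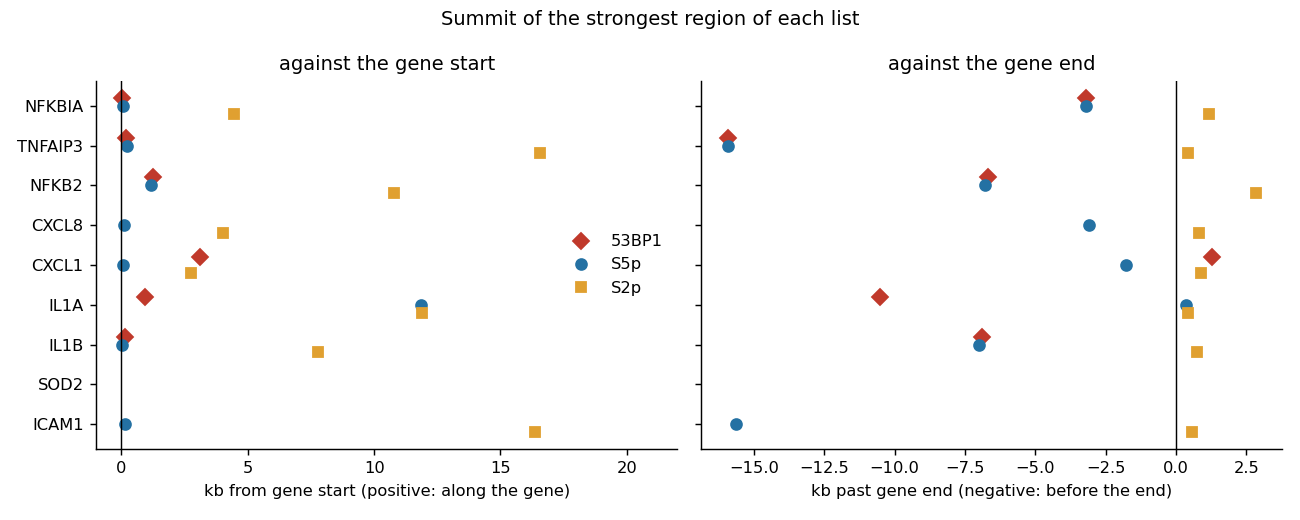
Summit of the strongest region of each list, in kb from the gene start (left) and in kb past the gene end (right), for each gene. S2p squares lie right of the gene end in 8 of 8 genes; 53BP1 diamonds lie near the S5p circles at NFKBIA, TNFAIP3, NFKB2 and IL1B, and past the end at CXCL1.

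53BP1 lay near an S5p summit toward the span's start in 5 genes and lay past the end in 2, with IL1A in both groups. The strongest 53BP1 summit lay within 500 bp of the span's start in 3 of 6 genes. It was 952 bp into the span at IL1A and 1265 bp into it at NFKB2. RefSeq starts lie nearer to these 2 summits only if the gene's end is shared between the builds, which was not checked. Toward the start, the 53BP1 and S5p summits were apart by 7 bp for NFKBIA, 15 bp for TNFAIP3 and 21 bp for IL1A. They were 97 bp apart for the nearer NFKB2 region and 103 bp apart for IL1B. Past the ends of CXCL1 and IL1A, the 53BP1 summit was nearer to the S2p summit, at 382 and 297 bp, than to the S5p summit, at 3065 and 338 bp. The 2 IL1A distances differ by less than the width of its 684 bp 53BP1 region. The 8 53BP1 regions were 298 to 1366 bp wide (median 547.5 bp), against a median of 561 bp in the list.

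S5p regions covered nearly all of 7 genes. S5p covered 100% of the span at NFKBIA, TNFAIP3, NFKB2, CXCL8, CXCL1 and IL1B, and 93.9% at IL1A. S2p covered 100% at NFKBIA, CXCL1 and IL1B, 90.7% at TNFAIP3, 90.0% at IL1A, 81.3% at NFKB2 and 30.5% at CXCL8. 53BP1 covered at most 22.3% of a span, at NFKBIA. The lists as a whole cover 0.25% (53BP1), 4.33% (S5p) and 5.20% (S2p) of the chromosomes' length, so these values describe genes within a list and do not set the lists against each other.

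**Figure D5:**
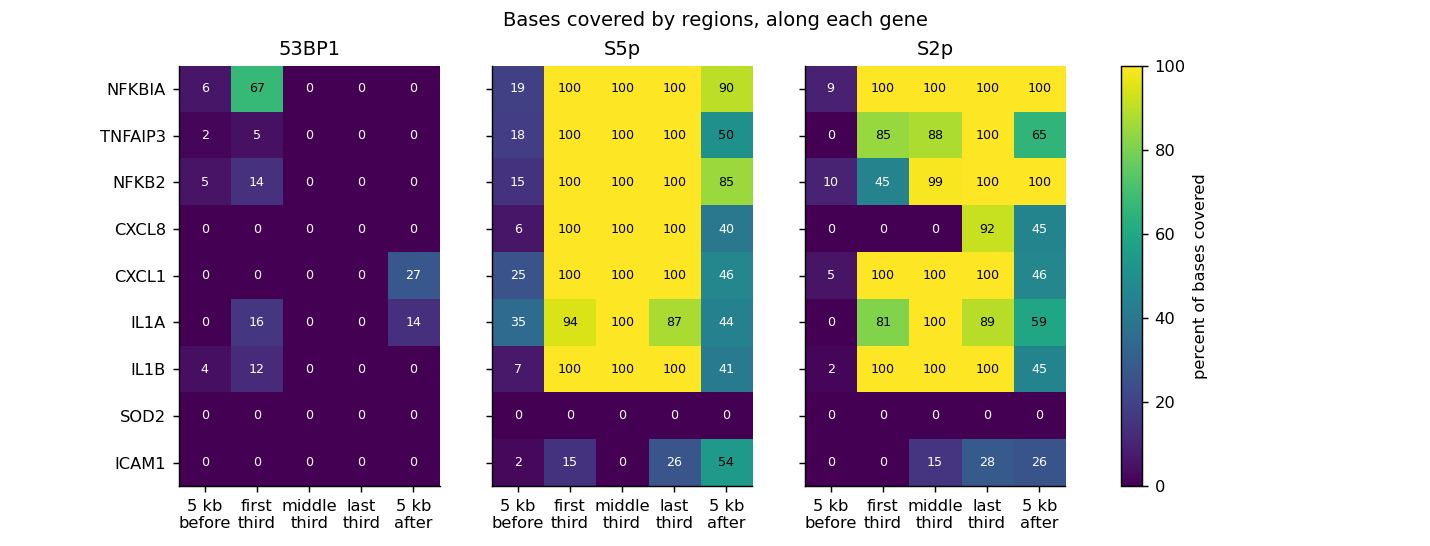
Percent of bases covered by regions of each list (colour and printed value) in the 5 kb before the gene, in the 3 equal parts of its span in the direction of transcription and in the 5 kb after it. 53BP1 lies in the first part of the span, in the 5 kb before it or in the 5 kb after it. S5p fills the span of 6 genes, and CXCL8 has S2p in the last part of its span and after it.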

How the data were processed

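MCF10A cells were profiled by ChIP-seq with 1 library per target. Per the submitters' processing notes, the tool was bcl2fastq 2.20.0.422 and the build hg19. The peak caller and its control, like the aligner, were not given in the sources used here, nor whether reads were pooled. Each deposited region has a fold enrichment (a ratio over background made by the authors), −log10 p-values and q-values as deposited, a deposited score (the −log10 q-value times 10, to within 1), and a summit offset. Stricter calling or more reads would change the number and width of regions, so a difference between lists in how many genes they meet, or in how much of a gene they cover, does not compare the factors.

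Only chromosomes 1 to 22 and X were used. Overlap was at least 1 bp. A percentile is the percent of a list with the same or a lower fold. Gene strands and starts came from RefSeq GRCh38.p14, and all 9 genes matched by symbol. No position was converted between builds, but the starts of NFKB2 and IL1A were placed by taking the gene's end as shared, an assumption that was not checked. Background windows run from each chromosome's first base to the last region of any list. The overlap, coverage and percentile functions were tested on simulated data. Alternatives were a −log10 q-value of 5 or more, the span alone or widened by 10 kb, stricter overlap and ranking by q-value. All 9 genes are named by rule. The genes and measures were chosen with earlier results of these data known. Planned descriptions of other pathway genes and of cell type markers were not made, for lack of an hg19 annotation, so the labelled cell type was not checked against markers. Scripts ran in Python 3.11.15 with scipy 1.17.1, pandas 2.3.3, numpy 2.4.6 and, for figures, matplotlib 3.10.9.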

Additional observations from a re-analysis of the deposited data

How the results depend on the processing

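Of 35 alternative values of the main results, 32 stayed within their limits (1.5 times for counts, the exact interval for shares and percentiles, no change for coverage and distances). The exceptions were the median 53BP1 percentile with the span alone, 35.1 over 5 genes, since CXCL1 then has no 53BP1 region, the median S5p percentile ranked by −log10 q-value, 92.4, and the median share of a span covered by 53BP1 with −log10 q-values under 5 left out, 0%. At that limit 4 genes kept 53BP1, since the regions of TNFAIP3 and NFKB2 lie below it, and 53BP1 met 41.7% of the S5p and 38.5% of the S2p regions. The shares over the whole lists at that limit were not counted, so the 15.2% and 13.9% given above are not their background. Of 76 values for single genes, 24 moved, among them the coverage of ICAM1, to 7.78% for S5p and 4.14% for S2p at that limit. The limits for counts and shares were wide. The 53BP1 count fell from 6 genes to 4, and the S5p share from 50% to 36.8%, and both stayed within them. For percentiles, the interval was built on the number of regions in a list and does not measure spread over genes. Staying within the limits therefore does not show that a result is stable. Widening by 10 kb added 5 S5p and 3 S2p regions and no 53BP1 region. No paired analysis was possible because no target had more than 1 library. Unknown depth limits every statement that a region was not detected.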

Other observations

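Regions upstream of SOD2 lay outside the widened span and were looked at after its lack of regions was seen. RefSeq in GRCh38 lists 4 starts for SOD2, of which 3 lie 33.7, 34.1 and 69.0 kb upstream of the one nearest the gene's end. In the hg19 lists, summits of 53BP1 (fold 11.3), S5p (fold 71.7) and S2p (fold 10.9) lay 33.9, 33.8 and 33.7 kb upstream of the SOD2 span. Further 53BP1 (fold 5.24), S5p (fold 24.8) and S2p (fold 27.2) summits lay 68.9, 68.8 and 68.9 kb upstream. The 2 sets of distances come from different builds and different origins. The RefSeq start nearest the gene's end lies 24173 bp from that end, while the hg19 span is 14206 bp long. The span therefore cannot share both that start and that end with the RefSeq gene. With the start taken as shared the 2 sets lie close together, and with the end taken as shared they do not. Neither placement was checked. Whether the regions lie at these starts was not tested. WTAP, which encodes a subunit of the RNA m6A methyltransferase complex, and ACAT2, which encodes an acetyl-CoA acetyltransferase, overlap the SOD2 gene in GRCh38. Regions there cannot be told apart between the 3 genes.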
